A study of Mus musculus with 2 samples.

Results

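The genes described here are the histone genes of the mouse, taken as every array probe whose deposited gene name starts with Hist1h to Hist4h, H1f, H2af or H3f3. This gave 71 probes for 49 gene names, of 41170 probes and 27742 deposited gene names in all. Of these, 36 names (47 probes) belong to the replication-dependent histone clusters and 13 names (24 probes) to histone variants. The names were compared between airway epithelium of fetal lung at embryonic days E14.5 and E18.5, in a study that searched for effectors of FOXJ1, which drives the making of motile cilia. Both samples came from wild-type male CD-1 mice, for which the labels name no treatment agent: the lining of the airways inside the lobes was cut by laser from stained frozen sections of 1 lung per age. Both were hybridised to 1 two-colour array, E14.5 in green (Cy3) and E18.5 in red (Cy5), without a dye swap. Each group is therefore 1 sample: no difference has a replicate check, no test was possible, and dye and age cannot be told apart.

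Every histone octamer holds H2A, H2B, H3 and H4, and linker histone H1 binds the DNA between octamers. Replication-dependent histone genes lie in clusters, lack introns and are transcribed mainly in S phase, when new DNA must be packaged. Their messenger RNAs end in a conserved stem-loop in place of a poly(A) tail, and the stem-loop binding protein SLBP steers their processing, translation and decay. Variant histones such as H2A.Z, macroH2A and H3.3 are made from ordinary polyadenylated messages throughout the cell cycle and are put into chromatin outside replication by their own chaperones. Some cluster genes are also known to give polyadenylated messages that run past the stem-loop. The labels name the amplification kit but not its primer; kits of this kind usually prime from poly(A) by oligo(dT). How far a tailless histone message was copied was not measured, and signal from tailed and tailless messages of a gene cannot be told apart.

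The probes are shown first because cluster genes of a type are near copies, and a 60-base probe may bind several of them. Coordinates are those of the deposited annotation on mm8. These H2A probes start at or just after the initiation codon; capitals mark bases that differ from Hist1h2ai or that reach past the end of its probe.
Hist1h2ai: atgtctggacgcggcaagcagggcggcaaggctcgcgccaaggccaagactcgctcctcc
Hist1h2ak: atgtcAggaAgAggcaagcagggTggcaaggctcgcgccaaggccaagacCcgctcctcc
Hist1h2af: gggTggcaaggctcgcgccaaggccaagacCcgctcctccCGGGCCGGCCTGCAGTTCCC
The probes lie at chr13:21794624-21794683 and chr13:21761233-21761292, both on the minus strand, and at chr13:23541396-23541455 on the plus strand. Hist1h2ak matched Hist1h2ai at 55 of 60 bases, and Hist1h2af matched it at 38 of the 40 bases they overlap.

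A second H2A set lies near the 3′ end of the reading frame, with capitals marking differences from Hist1h2aa. It shows that even a gene classed as a variant, H2afj, shares part of a probe with cluster genes.
Hist1h2aa: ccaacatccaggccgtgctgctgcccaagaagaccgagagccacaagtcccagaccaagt
Hist1h2af: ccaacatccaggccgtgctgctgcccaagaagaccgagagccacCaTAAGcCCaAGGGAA
H2afj: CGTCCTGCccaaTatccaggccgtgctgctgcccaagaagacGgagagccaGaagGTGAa
They lie at chr13:23942255-23942314, chr13:23541704-23541763 and chr6:136772856-136772915, all on the plus strand. Hist1h2aa and Hist1h2af shared a run of 44 identical bases, and Hist1h2aa and H2afj a run of 29.

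The H2B probes with the closest match follow, with capitals for differences from Hist1h2bk.
Hist1h2bk: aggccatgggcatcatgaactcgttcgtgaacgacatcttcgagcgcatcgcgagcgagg
Hist1h2bm: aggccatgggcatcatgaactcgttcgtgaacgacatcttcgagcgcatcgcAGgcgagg
Hist3h2bb: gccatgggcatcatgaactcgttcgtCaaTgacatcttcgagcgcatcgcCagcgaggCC
Their positions are chr13:22043524-22043583 and chr13:21729735-21729794 on the plus strand and chr11:58770390-58770449 on the minus strand. Hist1h2bk and Hist1h2bm were identical at 58 of 60 bases, and Hist3h2bb matched Hist1h2bk at 55. In all, 5 member probes were identical to a probe of another member at 55 or more of 60 bases, so values of these genes may be values of the set.

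All 49 names gave a ratio or, in 1 case, a bound; 2 of the 71 probes, one of H2afz and one of Hist4h4, were dim in both channels. Ratios are log2 values of E18.5 over E14.5 after background correction and loess normalization, and a change was called at 2-fold or more. Where a gene had several probes, the brightest was used. Cluster genes were more often lower than higher at E18.5: 10 of 36 (27.8%) were at least 2-fold lower and 2 (5.56%) at least 2-fold higher, against 9.51% lower and 15.1% higher among all 22091 gene names with a value. Their median log2 ratio was -0.51, against 0.04 over all names, and 26 of the 36 lay below 0. Of the 13 variants, 3 (23.1%) were at least 2-fold lower and 2 (15.4%) at least 2-fold higher, with a median of -0.63 and 8 below 0. Whether the classes differ could not be tested, and the order of their medians depended on the setting. It turned without loess, at -0.44 for cluster genes and -0.24 for variants. It also turned with the median over probes (-0.50 and -0.43), with every probe counted (-0.52 and -0.38) and without the pseudogene H2afy3 (-0.51 and -0.47). By locus, 9 of 25 names of the large cluster on chromosome 13 (Hist1) were at least 2-fold lower, with a median of -0.59. In the cluster on chromosome 3 (Hist2) it was 1 of 7, with a median of 0.39. In tissue RNA of this kind, fewer cells that express a gene and less RNA per cell cannot be told apart.

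**Figure D1:**
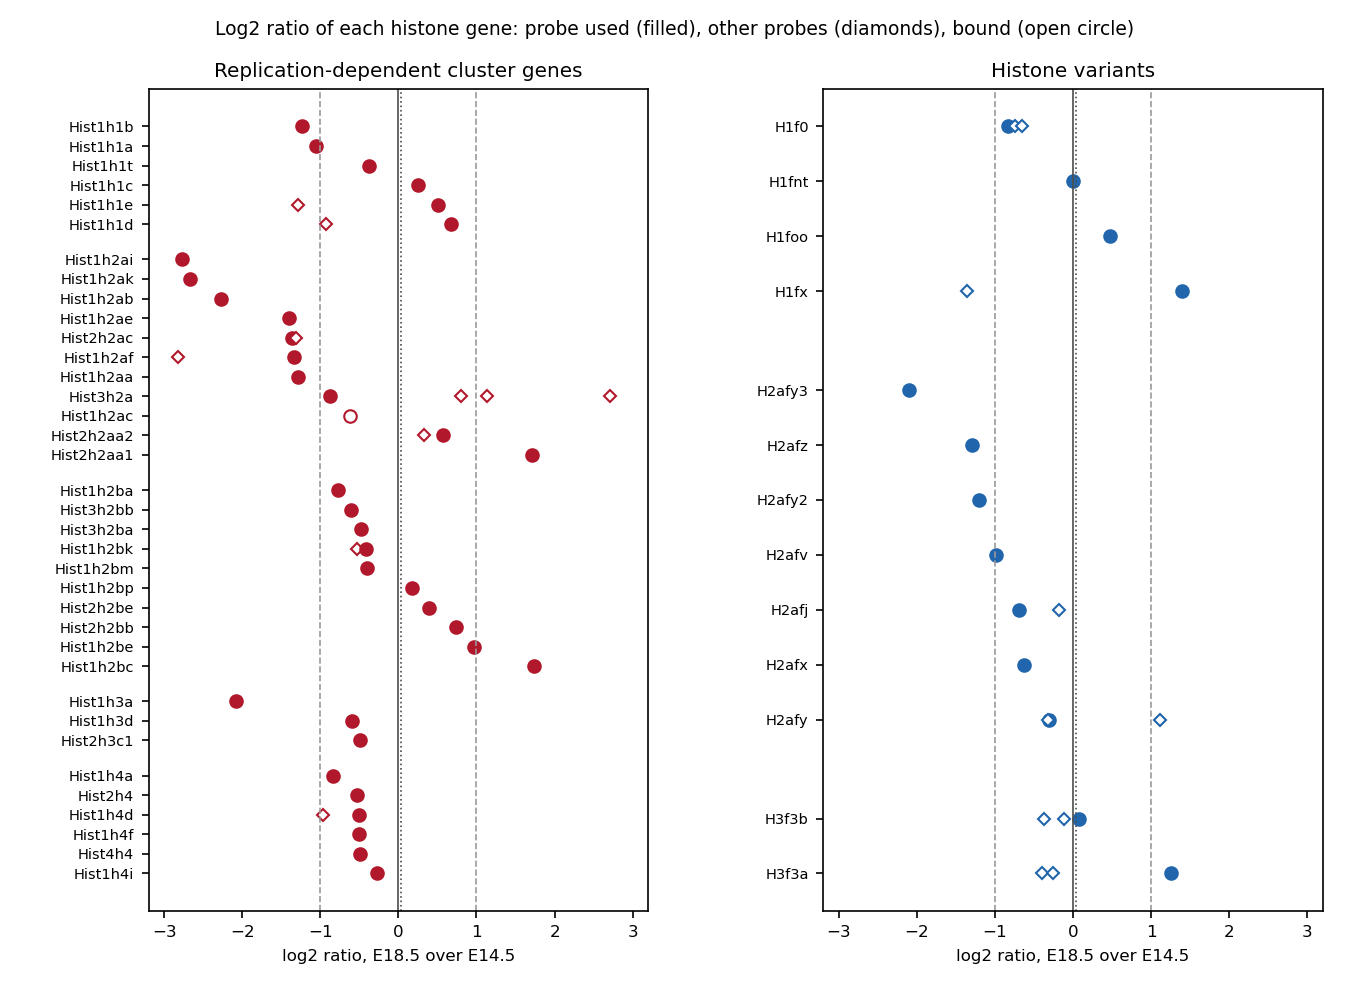
Log2 ratio of E18.5 over E14.5 (x axis) of each histone gene (y axis, grouped as H1, H2A, H2B, H3, H4), cluster genes at left and variants at right. Filled circles are the probe used, diamonds other probes of the same gene, the open circle a probe above background at E14.5 only; dashed lines mark 2-fold and the dotted line the median of all gene names, 0.04. By the probe used, cluster H2A genes reach down to -2.78, while cluster H4 genes lie between -0.83 and -0.28.

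H2A was the cluster family with the lowest ratios. Of 11 H2A names, 7 were at least 2-fold lower and 1 at least 2-fold higher, and the family median was -1.33. Hist1h2ai, the first sequence above, gave an intensity of 49420 at E14.5 and 7212 at E18.5, a log2 ratio of -2.78, or 6.85-fold lower. Its close copy Hist1h2ak gave 49373 and 7768, or 6.36-fold lower, and the matching probe of Hist1h2af gave 74966 and 10584, or 7.08-fold lower. The 3 start probes thus lay within 0.16 of each other on the log2 scale, and with shared runs of 26 to 40 bases they cannot be counted as separate measurements.

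The end probes of Hist1h2af and Hist1h2aa gave a smaller difference than the start probes above. So did Hist2h2ac, whose probes were not placed in the reading frame. Hist1h2af, by its end probe 308 bases further along, had intensities of 134134 and 53205, a log2 ratio of -1.33. This is 1.49 above the ratio of the same gene's start probe. Hist1h2aa, a core histone known from the testis, had 120832 and 49609, a log2 ratio of -1.28, on the probe that shares 44 bases with Hist1h2af. Hist2h2ac, in the smaller cluster on chromosome 3, had 127591 and 49440 (-1.37), and another probe of that name gave -1.31. The latter lies 25283 bases away on the opposite strand, 249 bases downstream of the Hist2h2aa1 probe, and which gene it reads was not tested. Without loess, on median-centred ratios, these 3 bright genes stayed under 2-fold, at -0.88, -0.85 and -0.93. The 11 member genes with an average intensity of at least 50000 moved up by a median of 0.45. This was not particular to histones: over 511 genes at that intensity, the median was 0.18 with loess and 0.62 without it.

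The remaining H2A names lay on both sides of 0. Hist1h2ab had an intensity of 571 at E14.5 and 119 at E18.5, a log2 ratio of -2.27. Hist1h2ae had 440 and 167, a log2 ratio of -1.40. The scanner software's ratios for both were lower still, at -3.37 and -2.08. Hist1h2ac was above background at E14.5 only, where it had 133, and was at least 1.54-fold lower at E18.5. Going the other way, Hist2h2aa1 had 5461 at E14.5 and 17860 at E18.5, a log2 ratio of 1.71, or 3.27-fold higher, on a probe that matches the Hist1h2ai probe at 48 of 60 bases. Its neighbour Hist2h2aa2, which codes for the same type of H2A, had 202 and 300, a log2 ratio of 0.57.

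By the probes used, H2B genes did not follow H2A. None of 10 cluster H2B names was at least 2-fold lower, and the median was -0.12. Hist1h2bc had an intensity of 3408 at E14.5 and 11349 at E18.5, a log2 ratio of 1.74, or 3.33-fold higher, the highest ratio among the cluster genes by the probes used. Hist1h2be had 137 and 266, a log2 ratio of 0.96, just under 2-fold, and it passed 2-fold by the scanner software's ratio at 1.39. Hist2h2bb had 685 and 1138, a ratio of 0.73. Hist2h2be (4466 and 5839) and Hist1h2bp (163 and 183) differed less, at 0.39 and 0.17. In contrast the near-identical coding probes printed above gave -0.42 for Hist1h2bk, -0.41 for Hist1h2bm and -0.60 for Hist3h2bb, which RefSeq lists as a transcribed pseudogene. Hist1h2ba, the testis H2B that neighbours Hist1h2aa, had 9711 and 5700, a log2 ratio of -0.77, and Hist3h2ba had 10464 and 7512 (-0.48).

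H3 and H4 genes all lay below 0, under every scaling that gave a value. The 6 H4 names ranged from -0.83 to -0.28, so no H4 gene reached 2-fold; by the scanner software's ratio, Hist1h4a did, at -1.03. Hist1h4a had an intensity of 3240 at E14.5 and 1819 at E18.5, Hist2h4 had 3146 and 2181 (-0.53), and Hist1h4i had 3888 and 3211 (-0.28). Hist4h4, on chromosome 6, had 909 and 644 (-0.50). By the probes used, the H4 values were thus close together. The genes lie on 3 chromosomes, but mouse H4 genes code for near-identical proteins and not all the probes are separate measurements. Hist1h4d and Hist1h4f, whose probes used share 50 bases, gave the same ratio to within 0.01 (-0.51 and -0.51). The Hist2h4 probe shares a run of 29 bases with each of these. A second, dimmer Hist1h4d probe had 965 at E14.5 and 496 at E18.5 (-0.96). Of 3 H3 names, Hist1h3a was lower by 4.22-fold, with an intensity of 404 at E14.5 and 96 at E18.5 (-2.08). Its fold is uncertain at signals this low: by the ratio of the scanner software it stood at -3.98, and with an offset of 10 at -2.68. Hist2h3c1, among the brightest member genes, had 111831 and 79668, a log2 ratio of -0.49, and Hist1h3d had 96941 and 64181, a ratio of -0.59. Without loess these last 2 stood at -0.02 and -0.15.

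Linker histone genes of the cluster split by gene and by probe. Hist1h1b, the H1.5 gene, had an intensity of 214 at E14.5 and 91 at E18.5, a log2 ratio of -1.23. Hist1h1a, the H1.1 gene, had 279 and 135, a ratio of -1.05, and -0.95 without loess. By the scanner software's ratio these dim genes stood at -2.49 and -1.87. Hist1h1c, the H1.2 gene, had 13947 and 16592, a ratio of 0.25. Hist1h1t, the testis H1, was close to background at 133 and 103, a ratio of -0.38. The family median of 6 H1 names was -0.06, and it turned to 0.04 without loess, so no direction can be given for the family.

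Hist1h1d and Hist1h1e each had probes that disagreed in sign. For Hist1h1d, the H1.3 gene, the upstream probe had 244 at E14.5 and 128 at E18.5 (-0.92), while the brighter probe, which starts 1751 bases further downstream, had 499 and 797 (0.68). For Hist1h1e, the H1.4 gene, the upstream probe had 240 and 99 (-1.28), and the downstream probe, 2320 bases on, had 211 and 301 (0.51). In both genes the upstream probe was lower at E18.5 and the downstream one higher.

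Hist3h2a held the widest spread, with 4 usable probes from -0.88 to 2.71. On the plus strand, its brightest probe had 21345 at E14.5 and 11582 at E18.5 (-0.88), while a probe 567 bases downstream had 7991 and 13949 (0.80). Another probe, named for the same gene but on the minus strand, had 283 and 620 (1.13). The last starts 17380 bases downstream of the brightest one and had 147 and 960 (2.71). RefSeq places Hist3h2a, as H2aw, inside the span of the gene Trim17, and whether the distant probe reads a histone message was not tested. Among all members, 7 genes had usable probes on both sides of 0, and 7 had probes at least 1 log2 unit apart: Hist3h2a, H1fx, Hist1h1e, H3f3a, Hist1h1d, Hist1h2af and H2afy. The median SD between probes of a gene was 0.59 over 14 member genes.

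Pooled over cluster genes, ratios differed with base composition of the probe. This did not hold within each gene: the Hist1h1e probes that disagree both have 45% G and C, and both Hist1h2af probes, 1.49 apart, have 60% or more. Coding sequence of histones is rich in G and C, so probes were split at 50% G and C, a value chosen after the data were seen. Of 26 cluster probes at or above it and measured at both ages, 24 lay below 0, with a median log2 ratio of -0.80. Below it, 12 of 19 lay above 0, with a median of 0.33. Across the array the same split gave medians of 0.00 for both sides, over 5889 and 24435 probes. Variant probes showed no such gap, with medians of -0.32 for 9 probes at or above 50% and -0.50 for 14 below it. The cluster H2A and H2B families were not read by like probes. The probes used for the 5 H2B names above 0 have 35% to 45% G and C. Those of the 7 H2A names at least 2-fold lower range from 35% to 68.3%, most at 60% or more. Hist2h2aa1, higher at E18.5, has 65%. Whether base composition has a part in the family difference was not tested. The 13 cluster probes that share a run of at least 20 bases with another member all lay below 0, from -2.82 to -0.41, and the other 32 ranged from -2.27 to 2.71. These probes share sequence and are not independent, and what sets the difference was not tested.

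**Figure D2:**
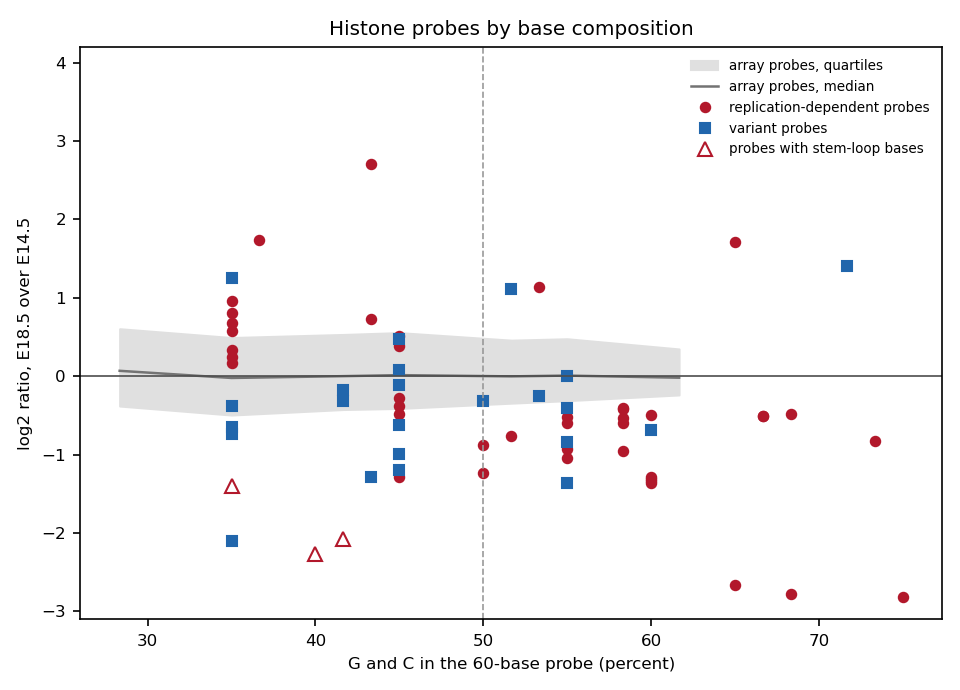
Log2 ratio of E18.5 over E14.5 (y axis) against the share of G and C in the probe in percent (x axis), for histone probes measured at both ages; circles are cluster probes, squares variant probes and open triangles the 3 cluster probes with stem-loop bases. The grey line and band are the median and quartiles of all array probes. At 50% or more (right of the dashed line) 24 of 26 cluster probes lie below 0, and below it 12 of 19 lie above 0.

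Among the AT-rich probes, those that touch the histone stem-loop were all lower at E18.5. The stem-loop was searched as a stem of 6 bases starting GG, a loop of 4 starting TT and the reverse complement of the stem, and it was found whole in 2 of 41170 probes, 1 of them a member, Hist1h3a. At least 11 consecutive bases of it occurred on the sense strand in 7 probes of the array, 3 of them members. Stretches of 30 bases of these 3 probes, with the stem-loop bases in capitals, are given because they mark the end of the mature message.
Hist1h3a: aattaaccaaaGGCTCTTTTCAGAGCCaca
Hist1h2ab: gaaagttaaccaaaacaaaGGCTCTTTTCA
Hist1h2ae: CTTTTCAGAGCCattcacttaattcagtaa
The whole probes lie at chr13:23769352-23769411 (minus), chr13:23758988-23759047 (plus) and chr13:23578085-23578144 (minus). All 3 were at least 2-fold lower at E18.5, with log2 ratios of -2.08, -2.27 and -1.40. The Hist1h2ab probe ends inside the stem-loop and the Hist1h3a probe runs 3 bases past it, whereas 48 of the 60 bases of the Hist1h2ae probe lie beyond it. Of the other 16 AT-rich cluster probes, 12 lay above 0, with a median of 0.45.

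Among variants, the H2A group lay below 0 throughout: all 7 names, under every scaling tried. H2afz, which codes for H2A.Z, the variant at promoters and regulatory sites, had an intensity of 168679 at E14.5 and 68932 at E18.5, a log2 ratio of -1.29. Its sister gene H2afv, for the second H2A.Z protein, had 125129 and 63046, a ratio of -0.99. Both were lower at E18.5 by a like amount, and without loess they stood at -0.79 and -0.53, within 2-fold. A further probe carrying the name H2afz, on chromosome 6, was not above background at either age.

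By the probes used, H2afx, H2afj and H2afy differed less, while H2afy2 and H2afy3 were at least 2-fold lower. H2afx, for the variant phosphorylated at DNA breaks, had 63399 at E14.5 and 40990 at E18.5, a log2 ratio of -0.63. H2afj had 104887 and 65009 (-0.69) on the probe that resembles cluster H2A, and -0.18 on a probe 1238 bases downstream. Without loess, H2afx stood at -0.27 and H2afj, by the brighter probe, at -0.24. MacroH2A carries a large extra domain and is linked to silent chromatin. H2afy, its main gene, had 25377 and 20413 (-0.31) and gave -0.32 with a second probe, but another, between them on the chromosome, had 4149 and 8978 (1.11). H2afy2, the second macroH2A gene, had 453 and 197, a ratio of -1.20 (-1.89 by the scanner software). H2afy3 had 28234 and 6589, a log2 ratio of -2.10, or 4.28-fold lower. RefSeq lists H2afy3 as a transcribed pseudogene, Macroh2a3, inside the span of the long non-coding gene Pvt1. Without it, 2 of 12 variants were at least 2-fold lower.

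H3.3 comes from H3f3a and H3f3b, which code for the same protein. H3f3b was level by its brightest probe, which had 124808 at E14.5 and 131305 at E18.5 (0.07), with -0.12 and -0.38 for the others. By the scanner software's ratio the brightest probe stood at 0.01. It was not level without loess, where the 3 probes stood at 0.60, 0.37 and -0.37 in that order. For H3f3a, the brightest probe had 83962 and 199359, a log2 ratio of 1.25, whereas its other probes had 83219 and 62973 (-0.40) and 79840 and 66837 (-0.26). The probe at 1.25 and the one at -0.40 start only 78 bases apart. The median over the 3 probes was -0.26, so the 2-fold call for H3f3a rests on 1 probe. Without loess that probe stood at 1.78 and the others at 0.02 and 0.17.

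Linker variants were measured with mixed agreement. H1f0, the H1.0 gene known from cells that have left the cycle, was lower at E18.5 with all 3 probes. It had 7371 at E14.5 and 4127 at E18.5 on the brightest, a log2 ratio of -0.84, and -0.74 and -0.65 on the others. H1fx had 1871 and 4938 (1.40) on its brightest probe, which the deposited annotation does not place on the genome, and 1686 and 655 (-1.36) on the other; it is the only member with probes past 2-fold in opposite directions. With the median over probes, neither H1fx (0.02) nor H3f3a was 2-fold higher, and no variant was. Both germline linker histones were dim: H1foo of the oocyte had 338 and 470 (0.48), and H1fnt of the spermatid had 151 at both ages, with a ratio of 0.00.

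**Figure D3:**
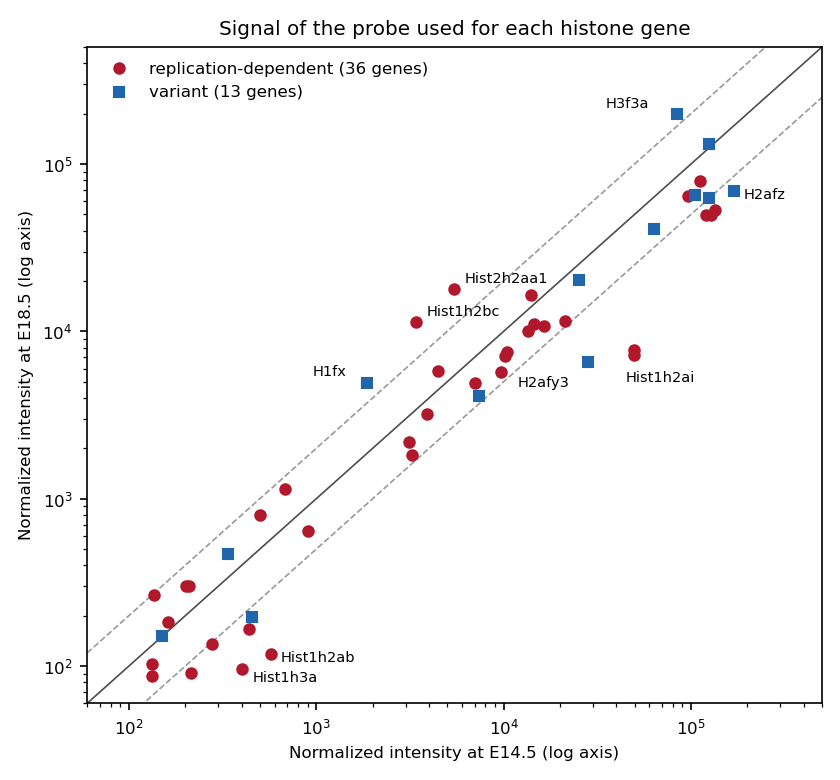
Normalized intensity at E14.5 (x axis) and E18.5 (y axis), both on log axes, of the probe used for each of 36 cluster genes (circles) and 13 variants (squares). The solid line is equality and the dashed lines are 2-fold. Hist1h2ai and its close copy lie farthest below equality among the bright cluster genes, at 49420 and 7212, and H3f3a lies above the upper line at 83962 and 199359.

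Promoters were read because cluster genes of a family can share control elements. RefSeq promoters (GRCm38.p6), from 250 bases upstream to the start site, were found for 37 members. CCAAT, searched on both strands, was in 24 of 27 cluster promoters and 5 of 10 variant promoters, against 33.8% of 32851 promoters. TATAAA was in 15 of 27 and 1 of 10, against 12.4%. ATTTGCAT, the octamer of OCT1, was also counted on either strand. It was in 10 of 15 cluster H2A and H2B promoters and in 0 of 12 of the other cluster families, against 1.60%. Windows of 2 of the 37 members overlap. The promoter of Hist1h2ab (chr13:23750838-23751087, plus strand) holds all 3, in capitals.
Hist1h2ab: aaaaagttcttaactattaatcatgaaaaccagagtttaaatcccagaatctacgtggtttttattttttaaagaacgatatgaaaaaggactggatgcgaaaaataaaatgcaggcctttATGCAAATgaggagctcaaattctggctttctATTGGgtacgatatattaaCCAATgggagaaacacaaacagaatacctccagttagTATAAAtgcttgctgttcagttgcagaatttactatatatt
Cluster genes with ATTTGCAT had a median log2 ratio of -0.83 over 10 genes, ranging from -2.27 to 0.96, and those without it -0.51 over 17, ranging from -2.78 to 1.71. The ranges overlapped almost wholly. The 17 genes without it include all 12 of the other families, so motif and histone family cannot be told apart here.

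Genes that act on histones differed by step. The list for S phase, the time of cluster histone synthesis, was lower throughout: 16 of 16 names at least 2-fold lower, with a median log2 ratio of -2.50, against -0.51 for the cluster histones. Tyms, for thymidylate synthase, was lowest at -3.07, followed by Gins1, of the replicative helicase, at -2.98, and no name lay above -1.60. Cenpa, the centromeric H3 outside the name rule, had 8694 at E14.5 and 1273 at E18.5, a ratio of -2.77. With the median over its probes, the other of which was above background at E18.5 only, it stood at -1.33.

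For histone gene transcription, 5 of 11 names were at least 2-fold lower and 1 higher, with a median of -0.79. Cyclin E genes, whose kinase acts on the cluster activator NPAT, were lowest, Ccne2 at -2.96 and Ccne1 at -2.62. Npat itself had 896 at E14.5 and 1293 at E18.5, a ratio of 0.53, and E2f2 was 3.36-fold higher. Of 13 names for histone pre-mRNA processing and decay, 2 were at least 2-fold lower. They were Slbp, with 46367 and 11812, a ratio of -1.97, and Lsm11, a subunit of the U7 particle that cuts the pre-mRNA, at -1.10. At the other end, Lsm10, its partner in that particle, stood at 0.52 and the nuclease gene Cpsf3 at 0.20.

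Chaperones of new histones were lower as well, in 11 of 18 names (median -1.24). With the median over probes it was 9 names (median -0.79), and without loess also 9 (median -0.95). Mcm2, a helicase subunit that also holds H3 and H4, was lowest at -3.26, followed by Nfkbil2 (TONSL) at -2.27. Ipo4 (0.18) and Nap1l4 (0.15) were the only ones above 0. Of 17 names for variant deposition, 6 were at least 2-fold lower and none higher, with a median of -0.30. With the median over probes 4 were lower, and without loess 1 was higher. Oip5, of the CENP-A loading complex, stood at -2.53 and Hira, the H3.3 chaperone, at -1.68, while Dmap1 (0.90) and Ruvbl2 (0.79), of the complexes that exchange H2A.Z, were highest. Each list's share that was 2-fold lower stands against 9.51% of all names, and the lists were chosen with earlier results of these data known.

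**Figure D4:**
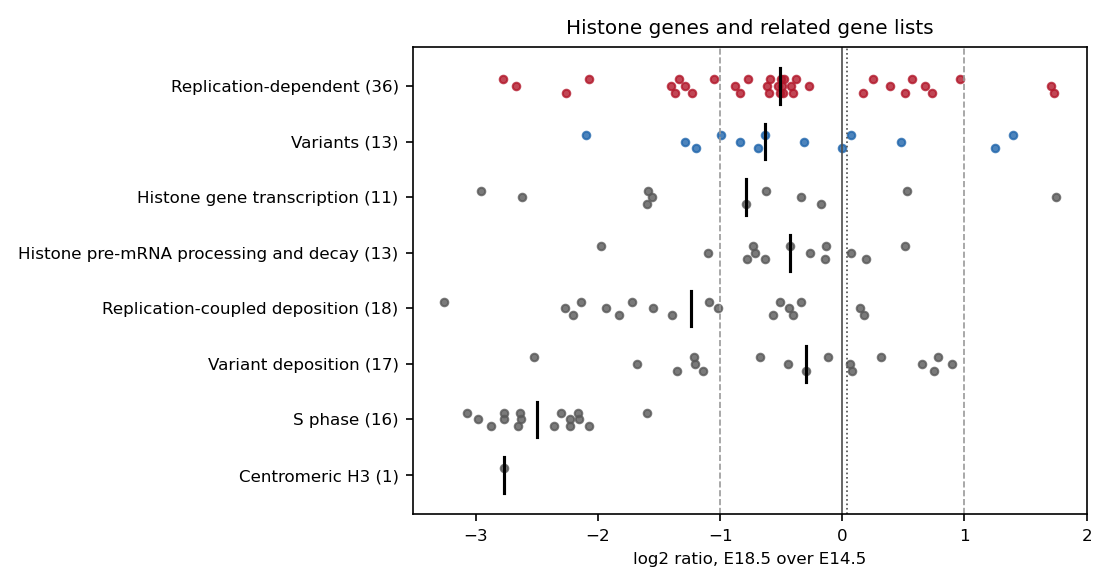
Log2 ratio of E18.5 over E14.5 (x axis) for cluster histones, variants and the lists of genes that make, process or deposit histones (y axis, number of genes in brackets). Points are genes, black bars medians, dashed lines 2-fold and the dotted line the median of all names. S phase genes have a median of -2.50, cluster histones -0.51 and variants -0.63.

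Cell makeup and signal were read beside these values. Epithelial markers were measured at both ages in 9 of 9 names, with summed intensities of 359052 and 564961 in that order, and 3 of 9 were at least 2-fold higher. Of 9 leukocyte markers 6 were higher at E18.5 by 2-fold or more (sums 3274 and 14182), and of 8 endothelial markers 3 were (15140 and 96938, or 11049 and 25268 without Kdr). Mesenchymal and smooth muscle markers included 3 of 9 at least 2-fold lower (502160 and 429636, but 309863 and 362639 without Acta2). Erythroid markers included 4 of 8 lower and 1 higher. Their sums of 41543 and 10195 rest on the embryonic globin Hbb-y, and the other 7 summed to 8631 and 8579. Several leukocyte markers were dim at E14.5, such as S100a8 at 116 and Ptprc at 148, so their ratios are imprecise. No list was at background as a whole at either age. Itgam alone was not above background at E14.5. Part of each sample's RNA thus carried markers of other cells, and their part in the histone ratios was not tested. Of the array probes, 75.2% stood above background in the E14.5 channel and 78.7% in the E18.5 channel. Repeated spots of a probe had a median SD of 0.05 in log2 ratio over 245 probes.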

How the data were processed

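Airway epithelium of 1 lung at E14.5 and 1 at E18.5 was measured on 1 two-colour array; the scanner tables of both samples were identical in 116 of 116 columns and were read as 1 array. They hold linear spot intensities with local background, as deposited by the authors and made with Agilent Feature Extraction 9.5.3.1 per the submitters' processing notes. They also hold a log10 ratio of red over green and flags of 0 or 1 from that software, per the file headers. The authors' value table of intensities equalled the processed intensity of each sample's channel times 0.339, to within 1% in 99.8% and 99.9% of the probes above its floor of 15, without centring (medians 129.1 and 130.2); its scale, centring and direction are thus known.

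Mean intensities were corrected with normexp (offset 50) and ratios were loess-normalized with a span of 0.3 and 4 iterations, using limma 3.58.1 (R 4.3.3), a step tested on simulated data; tables were handled in Python 3.11.15 and pandas 2.3.3. Loess hides a shift common to most genes, and the offset pulls dim ratios towards 0. Of 43379 probe spots, 160 outliers were left out; none was saturated (0 spots). Repeated spots were averaged. A gene took its brightest probe above background in at least 1 channel; a probe above background in 1 channel gives a bound: its bright signal divided by its own dim signal, or by the lowest above-background signal of the dim channel where that is higher. Bounds are open to dye bias. A probe dim in both gave no ratio. Negative controls had means of 45.9 ± 4.33 (SD) and 23.8 ± 4.79 (SD) over 153 spots. The number of arrays, 1, limits the precision; calls were made by size, and no p-value was computed.

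Of the 49 member names, 43 matched a RefSeq transcript of GRCm38.p6 by accession, used for names and promoters only. Members and gene lists were chosen with earlier results of these data known. Named genes are all variants; the 6 lowest and 6 highest cluster genes, 3 brightest, germline genes, and those with a bound or with probes 1 log2 unit apart; and the extremes of each list. Other cluster genes are named with the set of copies or the family they belong to, a choice made after their values were seen. Alternatives covered scaling, probe choice, filters, near-identical probes and updated names.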

Additional observations from a re-analysis of the deposited data

How the results depend on the processing

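The count of cluster genes at least 2-fold lower at E18.5 was 10, and 6 without loess. Counted by probe, 4 cluster probes were at least 2-fold higher instead of 2 genes. Lower variants numbered 3, but 5 with the scanner software's ratio and 5 with the authors' value table, where H2afv and H1f0 passed 2-fold. Higher variants numbered 2, and 0 with the median over probes. The variant median of -0.63 moved to -0.24 without loess. Over all names the lower count rose from 2100 to 3572 with the scanner software's ratio, where the calls that were higher fell from 61.4% to 52.6% of calls, and to 50.2% with the authors' table. Among members the share of calls that were higher was 23.5% in the main values and 38.5% without loess. The median of all names was 0.04, -0.07 with the scanner software's ratio, 0.10 without loess and -0.10 in the authors' table. The log2 ratio of H3f3a reversed from 1.25 to -0.26 with the median over probes. By the same choice 4 further members changed sign: Hist3h2a to 0.97, Hist1h1d to -0.12, Hist1h1e to -0.38 and H3f3b to -0.12. Among scaling choices, only H1fnt changed sign, to -0.10. The other 83 values of these 8 results under the alternatives, including those without near-identical probes, without H2afy3 and without the germline names (the last 2 chosen after the data were seen), kept their direction and stayed within 1.5 times or, for medians, within 0.33, the median SD between probes of a gene, taken as a tolerance. Members near background (Hist1h2ab, Hist1h2ac, Hist1h2ae, Hist1h3a, Hist1h1a, Hist1h1b, Hist1h1t, H2afy2, H1fnt) have imprecise ratios. The same holds for dim members with ratios above 0 (Hist1h2be, Hist1h2bp, Hist2h2aa2, Hist1h1e, H1foo).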
